A study of Mus musculus with 10 samples.

Results

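The genes described here are 46 genes of the extracellular matrix, namely collagens, matricellular proteins, the proteoglycans and enzymes that assemble or cut the matrix, and the TGF-beta ligands. They were chosen by gene symbol in the array's annotation, and 42 of the 46 had a probe, out of 16504 named genes measured. Col6a3, Spp1, Fbn1 and Thbs1 were not analysed here, since no probe carried their symbols. Each measured gene had a value on all 10 arrays, and no filter on low values was applied.

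The samples came from the left ventricles of 4 dyssynchronous mouse hearts, which the labels number 1, 3, 4 and 5, and from 1 control pool of RNA from synchronous mice. In a dyssynchronous ventricle the walls do not contract together, and the series' design connects the effect with implantation of a pacemaker. RNA of the lateral wall was hybridised directly against RNA of the septal wall of the same heart on 2-colour arrays, on 2 arrays with the dyes exchanged, and the pool was treated in the same way. The sources used here do not give strain, age, sex, length of pacing or the number of pooled mice, and the control animals have no spread of their own because they were pooled. The letters that name the walls of the pool are not spelled out in the labels and were read as lateral and septal.

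Every value below is a log2 ratio of the lateral wall over the septal wall, as the mean of the dye-swapped arrays unless said otherwise, so that a value below 0 is higher in the septal wall. Neither the log base nor the sign of the deposited values is stated. The sign was turned by the dye labels because the ratios of the few genes with very large ratios change sign when the dyes are exchanged, as set out with the processing. A reading of the sign applies to a whole array, so small and large ratios share it. The side of the small ratios of most genes is still uncertain. In 67.61% of all genes the part of the ratio that follows the dye was larger in size than the wall ratio. The values under the other reading, in which the deposited sign already compares the walls, are given beside the results on the whole set. No channel intensity was analysed here, so expression levels, faint probes and the labelled tissue could not be checked by level. In pieces of whole wall, fewer cells of a type and less RNA per cell cannot be told apart. Precision is limited by the number of arrays, and with 4 hearts an exact two-sided sign-flip test cannot give a p below 0.125.

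The cardiac extracellular matrix is laid down mainly by fibroblasts. Fibrillar collagens bear tension, basement membrane collagens surround myocytes and vessels, and lysyl oxidases crosslink the fibres. Matricellular proteins are secreted into the matrix but act on cells more than they bear load, and several of them are made in the heart after injury or overload. TGF-beta is stored in the matrix in latent form and, once released, drives matrix genes in fibroblasts through SMAD factors, while metalloproteinases cut the matrix and TIMPs inhibit them.

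No gene of this set passed limma's test at a Benjamini-Hochberg adjusted p of 0.05, either for the wall difference in the 4 hearts or for the hearts against the pool. The same was true of all 16504 genes, of which 0% were called in each of these comparisons. An unadjusted limma p under 0.05 was found for the walls in 934 genes, 5 of them members (Thbs4, Postn, Tgfbi, Fmod and Ltbp2), and for hearts against the pool in 783 genes, 2 of them members. These are 5 of 42 members, beside 934 of 16504 genes. All 5 of those members were on average higher in the septal wall, but the septal share among the 934 genes was not counted. Fitting the arrays singly in limma, with a term for the dye and hearts as blocks, called 20 genes, or 0.121%, and 0 members. The values that follow are therefore descriptions of 4 hearts, none of which was separated from 0 by the test over all genes.

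The members leaned to the septal side in count, with small ratios. The mean ratio lay below 0 in 29 of 42 members, or 69.05%, against 48.84% of all genes, and the median member stood at -0.08, against 0.00 over all genes. This lean was found with the sign turned by the dye labels. With values taken as already turned, which give the part that follows the dye, 21 of 42 members lay below 0, against 42.9% of all genes. The median member there stood at 0.00. The ratio was below 0 in all 4 hearts for 7 members, or 16.67%, against 7.63% of all genes. These were Col1a1, Col8a1, Fmod, Adamts1, Postn, Thbs4 and Tgfbi. It was above 0 in all 4 hearts for 2 members, Col3a1 and Col14a1, or 4.76%, against 7.8% of all genes. No member lay beyond 1.5-fold on the same side in all 4 hearts, where 18 genes, or 0.109%, did.

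The single arrays show how few of these ratios held in both dye orientations. Of the 42 members, Postn alone was septal on all 8 heart arrays, a rule met by 0.685% of all genes, and Col3a1 alone was lateral, a rule met by 0.648%. For the 5 genes with the smallest unadjusted p and for Col3a1, RefSeq's promoter sequences are printed here so that the genes that lay to the septal side in hearts 1, 4 and 5 can be set beside a lateral collagen. Each window is the 250 bases before the annotated start on build GRCm38.p6, 5′ to 3′ on the gene's own strand. The window of Thbs4 lies at chr13:92794819-92795068 on the minus strand, the second annotated start of Postn at chr3:54360857-54361106 on the plus strand, Tgfbi at chr13:56609336-56609585 on the plus strand, Fmod at chr1:134037004-134037253 on the plus strand, Ltbp2 at chr12:84876492-84876741 on the minus strand and Col3a1 at chr1:45311288-45311537 on the plus strand. Capitals mark matches on either strand to 4 motifs. These are the core bound by SMAD factors, CAGAC; the MCAT element bound by TEAD factors, CATTCC; the TATA box, here searched as TATAAA; and the element bound by AP-1, searched as TGANTCA.
Thbs4: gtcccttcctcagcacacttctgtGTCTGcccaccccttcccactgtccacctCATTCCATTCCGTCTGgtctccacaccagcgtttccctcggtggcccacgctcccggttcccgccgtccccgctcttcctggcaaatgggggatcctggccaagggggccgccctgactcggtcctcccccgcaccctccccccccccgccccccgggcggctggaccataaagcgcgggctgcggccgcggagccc
Postn: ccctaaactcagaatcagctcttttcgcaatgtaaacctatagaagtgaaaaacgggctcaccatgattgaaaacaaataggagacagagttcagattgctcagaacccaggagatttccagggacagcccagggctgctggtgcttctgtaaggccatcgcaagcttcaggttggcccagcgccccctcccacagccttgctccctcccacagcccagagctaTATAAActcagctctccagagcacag
Tgfbi: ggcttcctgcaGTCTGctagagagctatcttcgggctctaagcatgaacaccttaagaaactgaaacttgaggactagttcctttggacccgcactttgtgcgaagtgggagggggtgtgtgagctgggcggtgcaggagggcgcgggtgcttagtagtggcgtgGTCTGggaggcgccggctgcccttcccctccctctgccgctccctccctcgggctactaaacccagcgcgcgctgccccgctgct
Fmod: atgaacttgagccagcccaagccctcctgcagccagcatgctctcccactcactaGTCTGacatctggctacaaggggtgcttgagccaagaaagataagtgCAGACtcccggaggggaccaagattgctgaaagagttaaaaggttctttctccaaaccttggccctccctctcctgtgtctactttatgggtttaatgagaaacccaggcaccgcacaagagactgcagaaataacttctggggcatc
Ltbp2: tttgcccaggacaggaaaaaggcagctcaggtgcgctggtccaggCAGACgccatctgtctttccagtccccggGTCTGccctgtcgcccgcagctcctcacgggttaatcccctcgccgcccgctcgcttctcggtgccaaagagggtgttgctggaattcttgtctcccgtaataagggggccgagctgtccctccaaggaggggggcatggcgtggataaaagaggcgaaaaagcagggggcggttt
Col3a1: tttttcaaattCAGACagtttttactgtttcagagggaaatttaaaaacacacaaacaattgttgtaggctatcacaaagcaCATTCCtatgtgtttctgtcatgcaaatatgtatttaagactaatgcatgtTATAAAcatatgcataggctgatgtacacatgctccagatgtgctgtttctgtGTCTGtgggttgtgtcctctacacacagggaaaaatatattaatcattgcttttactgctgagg

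In these windows Thbs4 held 2 SMAD core matches and 2 MCAT matches, and the MCAT matches shared 1 base, beginning at -197 and -192 counted back from the start. Tgfbi, Fmod, Ltbp2 and Col3a1 each held 2 SMAD core matches, and Col3a1 also held 1 MCAT match and 1 TATA box match, the TATA box beginning at -117. The printed Postn window held a TATA box match at -26 and no SMAD core match, and the window of its other annotated start held 1 SMAD core match. The SMAD core occurred in 17 of 33 windows of measured members, or 51.5%, against 42.2% of all 32851 promoter windows. MCAT occurred in 18.2% of member windows, against 12.6% of all windows. The TATA box occurred in 27.3% of member windows, against 12.4% of all, and the AP-1 element in 6.06% of member windows, against 6.75% of all. The member windows belong to 29 of the 42 measured genes. The matches describe the letters only and were set against no measurement of factor binding.

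Thbs4, thrombospondin 4, is a matricellular protein of heart, tendon and muscle. Its ratio was -0.94, -0.07, -0.88 and -0.76 in hearts 1, 3, 4 and 5, against 0.23 in the control pool. Hearts 1, 4 and 5 lay close together on the septal side, heart 3 lay near 0, and the pool lay on the lateral side of all of them. The mean was -0.66 ± 0.40 (SD, n = 4 hearts), which is 1.58-fold in favour of the septal wall, with a limma adjusted p of 0.80. On the single arrays 7 of 8 were septal. The mean was -0.78 on arrays with lateral RNA in Cy5 and -0.54 on arrays with lateral RNA in Cy3.

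Postn, periostin, is secreted by activated fibroblasts and takes part in collagen fibril assembly. It stood at -0.72, -0.12, -0.56 and -0.16 in hearts 1, 3, 4 and 5, against -0.03 in the pool. Hearts 1 and 4 were further to the septal side than hearts 3 and 5, and all 4 lay below the pool. The mean was -0.39 ± 0.30 (SD, n = 4 hearts), with a limma adjusted p of 0.80. Its 2 dye orientations gave -0.41 with lateral RNA in Cy5 and -0.38 with lateral RNA in Cy3, the closest match among the 5 genes above.

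Tgfbi encodes a TGF-beta-induced adhesion protein that binds collagens. It stood at -0.38, -0.05, -0.35 and -0.50 in hearts 1, 3, 4 and 5, against -0.26 in the pool. Heart 3 was again the one nearest 0, and the pool lay inside the range of the hearts. Its mean was -0.32 ± 0.19 (SD, n = 4 hearts). Tgfbi and Ltbp2, like the other genes given by heart that lie outside the rule for named genes, were picked with their values in view.

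The remaining matricellular genes did not share a side. Tnc, tenascin C, an anti-adhesive glycoprotein made in remodelling tissue, stood at 0.59, 0.12, -0.04 and -0.18 in hearts 1, 3, 4 and 5, against -0.40 in the pool. All 4 hearts lay above the pool, but they fell on both sides of 0, with a mean of 0.13 ± 0.34 (SD, n = 4 hearts). Its 2 probes differed most in heart 4, with 0.49 on one and -0.56 on the other. With lateral RNA in Cy5 the mean of Tnc was -0.42 and with lateral RNA in Cy3 it was 0.67. Sparc, a collagen-binding glycoprotein, averaged 0.06 and Thbs2, thrombospondin 2, averaged -0.14. Over the 6 measured matricellular genes the median mean ratio was -0.23, against -0.02 in the pool. With values taken as already turned it was -0.06.

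The fibrillar collagens did not share a side. Col1a1, which encodes the alpha 1 chain of type I collagen, stood at -0.13, -1.47, -0.03 and -0.36 in hearts 1, 3, 4 and 5, against -0.28 in the pool. Heart 3 lay far below the other hearts, and the pool fell within their range. The mean was -0.50 ± 0.66 (SD, n = 4 hearts), with a limma adjusted p of 0.80. In heart 3 the array with lateral RNA in Cy5 gave 0.00 and the array with lateral RNA in Cy3 gave -2.94, so the heart's value comes from a single array. Without heart 3 the mean was -0.17.

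Col1a2, the alpha 2 chain that joins Col1a1 in the same triple helix, stood at -0.10, 0.11, -0.21 and -0.11 in hearts 1, 3, 4 and 5, against -0.02 in the pool. These are small ratios on both sides of 0, with a mean of -0.08 ± 0.13 (SD, n = 4 hearts) and a limma adjusted p of 0.82. In heart 3 the 2 chains of type I collagen thus lay on opposite sides of 0.

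Col3a1, the chain of type III collagen, which forms thin fibrils alongside type I, was the reverse of most members. It stood at 0.02, 0.28, 0.06 and 0.36 in hearts 1, 3, 4 and 5, against 0.03 in the pool. Hearts 3 and 5 carried most of the lateral excess, and hearts 1 and 4 lay beside the pool. The mean was 0.18 ± 0.17 (SD, n = 4 hearts), which is 1.13-fold in favour of the lateral wall, with a limma adjusted p of 0.80. Both orientations were lateral, at 0.16 with lateral RNA in Cy5 and 0.20 with lateral RNA in Cy3.

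Col14a1, a fibril-associated collagen, was lateral in all 4 hearts at 0.27, 0.05, 0.02 and 0.31 in hearts 1, 3, 4 and 5, against 0.12 in the pool, but its 2 probes gave -0.19 and 0.72 in heart 1. The pool lay inside the range of the hearts. The type V chains, which set fibril diameter, averaged 0.06 for Col5a1 and -0.12 for Col5a2. The orientation means of Col5a2 were 0.37 with lateral RNA in Cy5 and -0.60 with lateral RNA in Cy3.

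**Figure D1:**
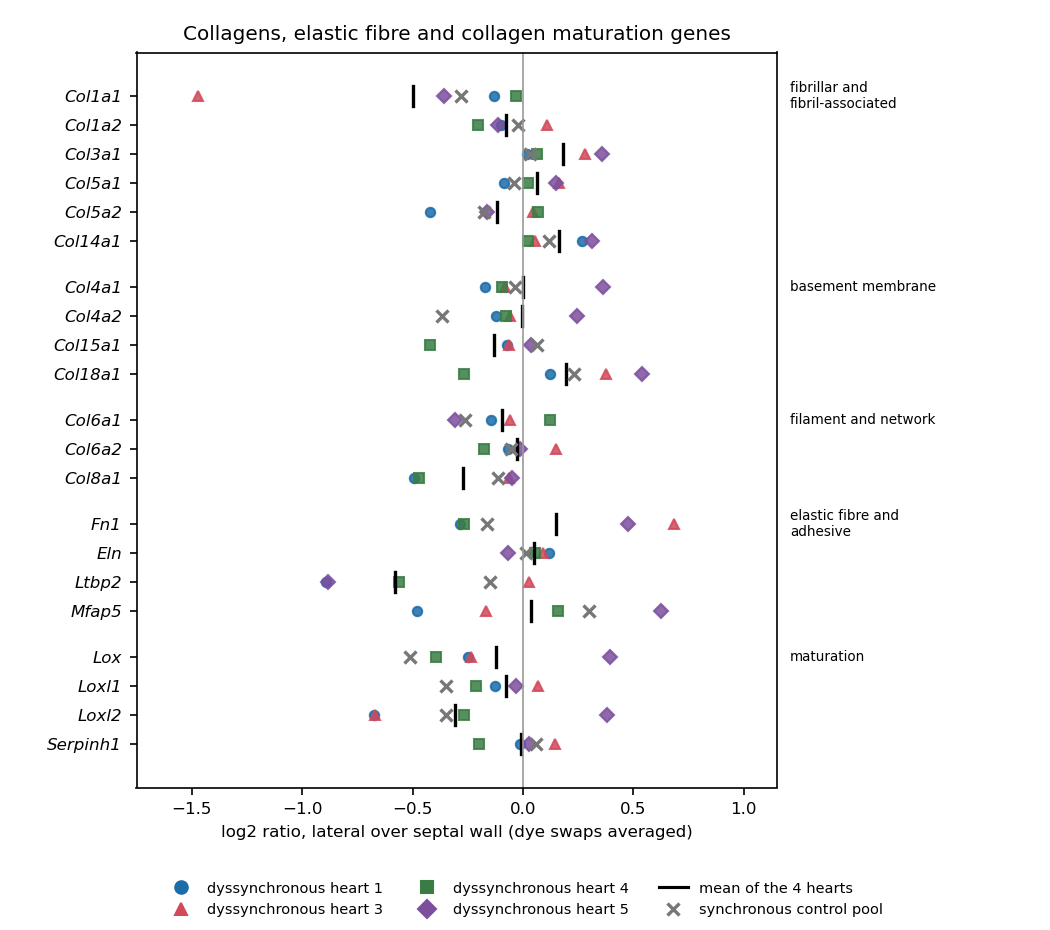
Log2 ratio of lateral over septal wall (horizontal axis) for the 21 collagen, elastic fibre, adhesive and collagen maturation genes, 1 row a gene. Symbols are the 4 dyssynchronous hearts with both dye orientations averaged, the black bar is their mean and the grey cross is the control pool. Most points lie within 0.5 of 0, Col1a1 of heart 3 stands apart at -1.47, and Ltbp2 has hearts 1, 4 and 5 well to the septal side.

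The basement membrane collagens were set apart by heart 5. Col4a1, the alpha 1 chain of type IV collagen, stood at -0.17, -0.08, -0.09 and 0.36 in hearts 1, 3, 4 and 5, against -0.04 in the pool. Heart 5 was lateral and the other 3 hearts were slightly septal, which left a mean of 0.00 ± 0.24 (SD, n = 4 hearts) and a limma adjusted p of 1.00. Col4a2, its partner chain transcribed from the same locus in the opposite direction, gave -0.12, -0.06, -0.08 and 0.25 in hearts 1, 3, 4 and 5, against -0.37 in the pool. Heart 5 was the only lateral heart for both partners. Col15a1 and Col18a1, which carry heparan or chondroitin sulphate chains, averaged -0.13 and 0.19, and the Col18a1 mean changed side with the dye, at -0.07 with lateral RNA in Cy5 and 0.46 with lateral RNA in Cy3. Heart 5 had a median of 0.30 over the 4 genes, and the other hearts had medians from -0.18 to -0.06, against 0.01 in the pool.

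Among the filament and network collagens, Col8a1, a short-chain collagen of vessels, was septal in all hearts at -0.49, -0.06, -0.47 and -0.05 in hearts 1, 3, 4 and 5, against -0.11 in the pool. Hearts 1 and 4 stood apart from hearts 3 and 5, the same division as for Postn, and the pool lay between them. The mean was -0.27 ± 0.25 (SD, n = 4 hearts), with a limma adjusted p of 0.80. Col6a1, a chain of the beaded-filament collagen VI, stood at -0.14, -0.06, 0.12 and -0.31 in hearts 1, 3, 4 and 5, against -0.26 in the pool. Its hearts lay on both sides of 0 with a mean of -0.10 ± 0.18 (SD, n = 4 hearts) and a limma adjusted p of 0.82, and Col6a2, another chain of the same filament, averaged -0.03.

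Of the adhesive and elastic fibre genes, Fn1, fibronectin, was split between hearts. It stood at -0.29, 0.68, -0.27 and 0.48 in hearts 1, 3, 4 and 5, against -0.17 in the pool. Hearts 3 and 5 were lateral and hearts 1 and 4 septal, so the mean of 0.15 ± 0.50 (SD, n = 4 hearts) describes none of them (limma adjusted p 0.87). The Fn1 mean was 0.64 with lateral RNA in Cy5 and -0.34 with lateral RNA in Cy3. Ltbp2, a latent-TGF-beta-binding-protein family member of elastic fibres, stood at -0.89, 0.03, -0.56 and -0.88 in hearts 1, 3, 4 and 5, against -0.15 in the pool. Hearts 1, 4 and 5 were septal by a wide margin and heart 3 was not, with a mean of -0.58 ± 0.43 (SD, n = 4 hearts). Eln, elastin, lay within 0.12 of 0 in every heart, and Mfap5, a microfibril protein, ranged from -0.48 to 0.63.

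The collagen maturation genes were not uniform. Lox, the lysyl oxidase that starts collagen and elastin crosslinking, stood at -0.25, -0.24, -0.40 and 0.39 in hearts 1, 3, 4 and 5, against -0.51 in the pool. Heart 5 alone was lateral, and all hearts were above the pool. Loxl2, a related oxidase, stood at -0.67, -0.67, -0.27 and 0.38 in hearts 1, 3, 4 and 5, against -0.35 in the pool, and again heart 5 alone was lateral. Loxl1 averaged -0.08, and Serpinh1, the collagen chaperone of the endoplasmic reticulum, averaged -0.01.

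The small leucine-rich proteoglycans, which bind collagen fibrils and control their growth, included the lowest mean of the whole set. Fmod, fibromodulin, stood at -0.77, -0.16, -0.90 and -1.46 in hearts 1, 3, 4 and 5, against 0.12 in the pool. Every heart lay below the pool, and heart 3 was nearest to it. The mean was -0.82 ± 0.54 (SD, n = 4 hearts), which is 1.77-fold in favour of the septal wall, with a limma adjusted p of 0.80. The orientations were unequal, at -0.24 with lateral RNA in Cy5 and -1.41 with lateral RNA in Cy3, and in heart 4 the 2 arrays lay at 0.72 and -2.53. Its fold therefore rests mainly on the arrays with lateral RNA in Cy3.

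Dcn, Lum and Bgn, the proteoglycans decorin, lumican and biglycan, all had hearts 1, 4 and 5 septal and heart 3 lateral. Dcn stood at -0.21, 0.07, -0.30 and -0.42, Lum at -0.15, 0.15, -0.18 and -0.18, and Bgn at -0.15, 0.22, -0.22 and -0.25 in hearts 1, 3, 4 and 5, against -0.09, -0.11 and -0.04 in the pool for the genes in that order. Ogn, osteoglycin, differed from them, with hearts from -0.00 to 0.23, against -0.29 in the pool.

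The 3 TGF-beta ligands showed no shared side. Tgfb1 stood at 0.17, -0.19, -0.43 and 0.49 in hearts 1, 3, 4 and 5, against -0.70 in the pool. The hearts straddled 0 and all lay above the pool, with a mean of 0.01 ± 0.41 (SD, n = 4 hearts). The difference of hearts and pool was 0.71, with a limma adjusted p of 1.00, and the lone pool was assumed to vary like 1 heart. Tgfb2 stood at 0.13, -0.13, -0.43 and -0.54 in hearts 1, 3, 4 and 5, against 0.01 in the pool. Its mean of -0.24 ± 0.30 (SD, n = 4 hearts) came mostly from hearts 4 and 5, with a limma adjusted p of 0.80. Tgfb3 ranged from -0.11 to 0.07 over the hearts.

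Proteases and their inhibitors were close to 0 or varied by heart. Mmp2, a gelatinase made by fibroblasts, stood at -0.11, 0.02, -0.36 and -0.29 in hearts 1, 3, 4 and 5, against -0.02 in the pool. Heart 3 lay beside the pool and the other hearts were septal, with a mean of -0.18 ± 0.17 (SD, n = 4 hearts) and a limma adjusted p of 0.80. Mmp3, stromelysin 1, stood at -0.23, 0.04, -0.84 and -0.35 in hearts 1, 3, 4 and 5, against -0.17 in the pool, the same order of heart 3 against the rest. Mmp14, a membrane-bound activator of Mmp2, averaged 0.11.

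Adamts1, a secreted protease that cuts versican, was the most even member across hearts, at -0.04, -0.05, -0.09 and -0.09 in hearts 1, 3, 4 and 5, against -0.49 in the pool. The hearts lay just on the septal side of 0 and all above the pool. The difference of hearts and pool was 0.42, with a limma adjusted p of 0.93. Its dye orientations opposed each other, at -0.19 with lateral RNA in Cy5 and 0.06 with lateral RNA in Cy3, so that evenness belongs to the averages.

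Timp1, an inhibitor made in response to cytokines, stood at -0.26, 0.00, 0.20 and -0.21 in hearts 1, 3, 4 and 5, against 0.27 in the pool. The hearts lay on both sides of 0 and all below the pool, with a mean of -0.07 ± 0.21 (SD, n = 4 hearts) and a limma adjusted p of 0.87. On 3 of the 8 heart arrays the deposited Timp1 value was exactly 0, whose meaning is not stated. Timp2 stood at 0.09, -0.17, -0.84 and 0.88 in hearts 1, 3, 4 and 5, against 0.60 in the pool, and its orientation means of 1.07 with lateral RNA in Cy5 and -1.09 with lateral RNA in Cy3 nearly cancelled. Timp3, the inhibitor bound to the matrix, averaged -0.13.

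**Figure D2:**
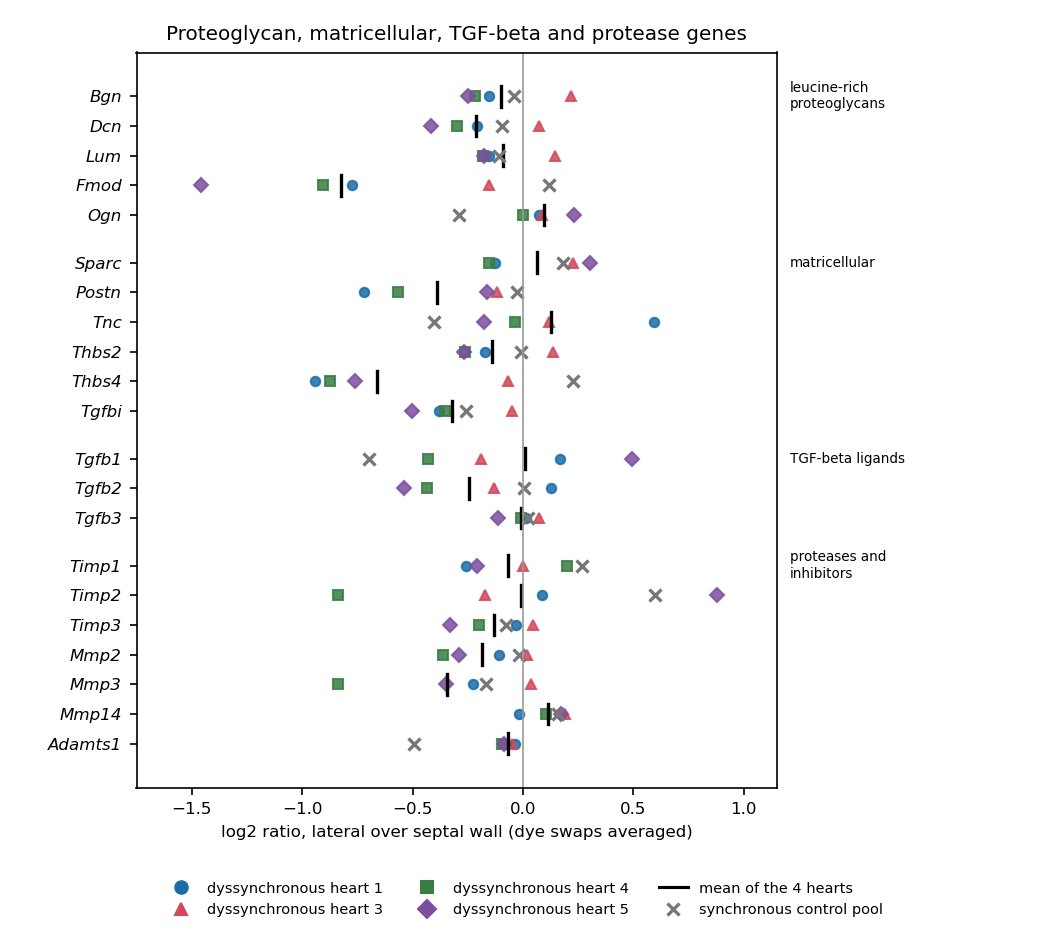
Log2 ratio of lateral over septal wall (horizontal axis) for the 21 proteoglycan, matricellular, TGF-beta and protease genes, 1 row a gene, with the same symbols as for the structural genes: 4 dyssynchronous hearts, their mean as a black bar and the control pool as a grey cross. Hearts 1, 4 and 5 lie left of heart 3 for Fmod, Thbs4, Tgfbi, Dcn and Mmp2, and the pool lies right of all hearts for Thbs4 and Fmod.

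Many members gave different ratios in the 2 dye orientations. The part of the ratio that follows the dye, taken as the difference of the 2 orientation means divided by 2, was larger in size than the wall ratio in 22 of 42 members, or 52.38%, against 67.61% of all genes. By construction, those 22 are the members in which the 2 orientations gave opposite sides. After turning by wall, the 2 arrays of the same RNA were correlated across the 18218 features with 1 symbol. The correlation was -0.31, -0.35, -0.28 and -0.18 for hearts 1, 3, 4 and 5, and -0.30 for the pool. Before turning, arrays of different RNA also correlated positively. Their correlations were 0.05 to 0.29 in opposite orientation and 0.15 to 0.29 in equal orientation. These are correlations across features, which are not independent replicates, and they do not tell which reading of the sign holds. Thbs4, Postn, Tgfbi, Ltbp2, Mmp3 and Col3a1 lay on the same side in both orientations, whereas Col1a1, Col5a2, Fn1, Timp2 and Tnc did not. With values taken as already turned, which give this part that follows the dye, 20 of the 42 members change sign. Among them are Fmod at 0.58 and Col3a1 at -0.02.

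**Figure D3:**
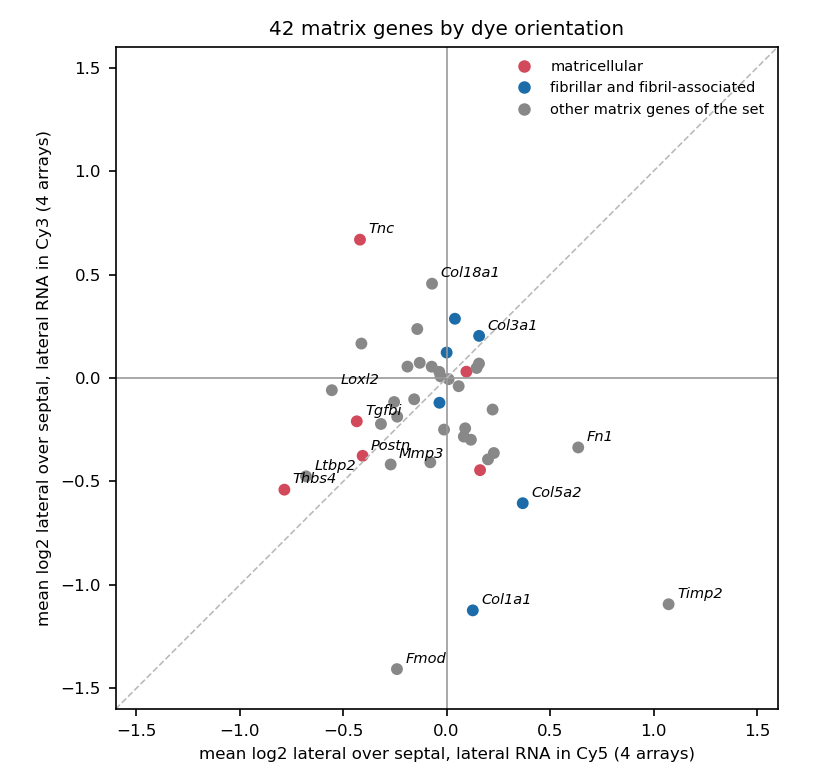
Mean log2 ratio of lateral over septal wall on the 4 heart arrays with lateral RNA in Cy5 (horizontal axis) against the 4 with lateral RNA in Cy3 (vertical axis), 1 point for each of the 42 measured genes, with the dashed line marking equal values. Postn and Thbs4 lie near the line on the septal side, and Timp2, Col1a1, Fn1 and Tnc lie in the quadrants where the orientations oppose each other.

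With the sign turned by the dye labels, heart 3 had the highest median of the 4 hearts. The median ratio of the 42 members was -0.13, 0.04, -0.20 and -0.08 in hearts 1, 3, 4 and 5, against -0.04 in the pool. Of the 42 members, 32, 17, 33 and 25 lay below 0 in hearts 1, 3, 4 and 5, against 27 in the pool. With values taken as already turned the hearts were much closer, with medians of -0.02, -0.01, 0.01 and 0.00 and with 25, 21, 21 and 20 members below 0 in hearts 1, 3, 4 and 5, against 20 in the pool. Hearts 1, 4 and 5 were all septal for 18 of the 42 members, against 12.7% of all genes, and 11 of these 18 lay above 0 in heart 3. Those 11 were Col1a2, Col6a2, Loxl1, Bgn, Dcn, Lum, Timp3, Mmp2, Mmp3, Ltbp2 and Thbs2. When heart 1, 4 or 5 was left out in turn, the members septal in all remaining hearts numbered 8, 8 and 12, beside 13.3%, 13.9% and 13.1% of all genes. With values taken as already turned, 10 members lay below 0 in hearts 1, 4 and 5, and 9, 11 and 12 did so without heart 1, 4 or 5. Leaving out heart 3 also brought 2 members, Thbs4 and Fmod, beyond 1.5-fold in the septal direction in every remaining heart, against 0.248% of all genes, with means of -0.86 and -1.05.

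Across the 42 members the ratios of hearts 1 and 4, 1 and 5, and 4 and 5 correlated at 0.44, 0.43 and 0.35, whereas those of heart 3 with hearts 1, 4 and 5 correlated at 0.20, 0.09 and 0.13. Across all 16504 genes the correlations between hearts lay between -0.01 and 0.08. These values describe genes that share arrays and dyes, and carry no test. Over 42 genes a few large ratios can weigh heavily. Such ratios are Col1a1 at -1.47 in heart 3, which comes from a single array, and Fmod at -1.46 in heart 5.

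**Figure D4:**
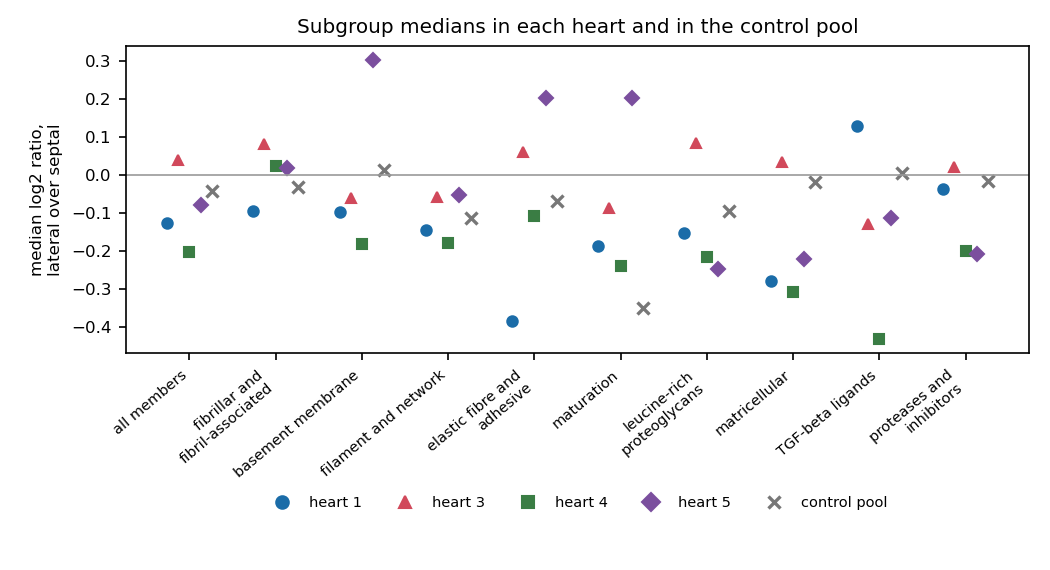
Median log2 ratio of lateral over septal wall (vertical axis) over all 42 members and in each of 9 subgroups (horizontal axis), for the 4 dyssynchronous hearts and, as a grey cross, the control pool. Heart 3 lies above 0 for all members together and hearts 1, 4 and 5 lie below it, while heart 5 is the highest for the basement membrane collagens at 0.30.

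Against the control pool, all 4 hearts lay above it for 7 members, or 16.67%, beside 17.7% of all genes, and below it for 5 members, or 11.9%, beside 18.1% of all genes. Those above were Col4a2, Lox, Loxl1, Ogn, Adamts1, Tnc and Tgfb1, and those below were Col15a1, Fmod, Timp1, Postn and Thbs4. Both shares were at or under the background. The largest differences of hearts minus pool among these members were -0.94 for Fmod, -0.89 for Thbs4 and 0.71 for Tgfb1, and the lowest limma adjusted p of any member was 0.93, for Adamts1.

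Of 97 other matrix genes listed, 88 were measured, with a median ratio of -0.03 and means from -2.46 to 0.42. Of these, 14, or 15.9%, were septal in all 4 hearts, against 7.63% of all genes and a similar 16.67% of the members. Those lateral in all 4 hearts were 4, or 4.5%, against 7.8% of all genes. Comp, a pentameric thrombospondin of cartilage and tendon, was the only one beyond 1.5-fold in every heart, at -2.55, -0.81, -3.69 and -2.79 in hearts 1, 3, 4 and 5, against -0.52 in the pool. Heart 3 was again the nearest to 0. Cilp is a secreted protein of cartilage that is also made by cardiac fibroblasts. It was the only one of these genes called by the limma fit of single arrays, at an adjusted p of 0.046. In the limma fit of averaged arrays its adjusted p was 0.73. Its mean was -0.74 ± 0.24 (SD, n = 4 hearts), against 0.30 in the pool. By list, the median was -0.08 for 10 other collagens and 0.04 for 10 genes of laminins, nidogens and agrin, with perlecan not measured. The median was -0.11 for 6 other proteoglycans and -0.16 for 9 other matricellular genes. It was -0.09 for 11 other elastic fibre genes, -0.07 for 10 other maturation genes, 0.05 for 14 other proteases and inhibitors, 0.06 for 7 TGF-beta receptors and signalling genes and 0.04 for 11 matrix receptors.

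Markers of other tissues also differed between the wall samples. A list of 10 genes of tendon, valve and cartilage-like tissue, which shares Comp and Cilp with the other matrix genes, had a median of -1.10, -0.63, -0.98 and -1.10 in hearts 1, 3, 4 and 5, against -0.23 in the pool. Of these 10, 7 were septal in all 4 hearts and 5 were beyond 1.5-fold in all of them, namely Comp, Dkk3, Ecrg4, Angptl7 and Ucma. Over all genes, 7.63% were septal in all 4 hearts and 0.109% were beyond 1.5-fold one way. Sox9, Tnmd and Chad had hearts on both sides of 0, with means of 0.30, -0.43 and -0.15. The list was chosen with earlier results of these data known, so its counts are description only. The 5 atrial myocyte markers had a median of -1.35, -0.57, -0.14 and -2.27 in hearts 1, 3, 4 and 5, against 0.00 in the pool, with 3 septal in all hearts and Myl7 and Myl4 beyond 1.5-fold. The tendon, valve and cartilage-like list was least septal in heart 3, as Thbs4, Ltbp2 and Fmod were. The atrial median was least septal in heart 4, but its markers differed. Myl7 stood at -5.18, -3.36, -3.53 and -6.10 in hearts 1, 3, 4 and 5, so it was least septal in heart 3, as was Nppa at 0.20. Myl4, Sln and Fgf12 were least septal in heart 4, at -0.95, 0.64 and -0.14. The part of both lists in the members' ratios was not tested. Summed levels could not be given, since the files hold ratios alone.

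The 10 fibroblast markers had a median mean ratio of -0.12, with 6 below 0. By heart the median was -0.02, 0.13, -0.10 and -0.25 in hearts 1, 3, 4 and 5, against -0.03 in the pool, and 1 marker was septal and 2 were lateral in all 4 hearts. The ordering of the medians, with heart 3 above 0 and hearts 1, 4 and 5 below, was that of Dcn and Lum. Among the single markers only Gsn and Mfap4 had it. In heart 3, 4 of the 10 markers lay below 0, namely Pdgfra, Tcf21, Thy1 and Pdgfrl, at -0.07, -0.05, -0.21 and -0.03. The part of fibroblast content in Dcn and Lum was not tested. The median was 0.25 for 7 smooth muscle and activated fibroblast genes, of which Cnn1 was beyond 1.5-fold to the lateral side in all hearts. It was 0.26 for the 4 of 6 macrophage genes that were measured, -0.08 for 7 epicardial, -0.08 for 6 ventricular myocyte, -0.07 for 6 endothelial and -0.21 for 6 skeletal muscle genes. Of the ventricular markers Myh7, the slow myosin heavy chain, was beyond 1.5-fold to the septal side in all hearts, at -0.81, -1.10, -1.18 and -2.74 in hearts 1, 3, 4 and 5, against -0.82 in the pool.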

How the data were processed

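RNA from lateral and septal walls was measured on 10 2-colour arrays read with Agilent Feature Extraction 7.5, per the submitters' processing notes. The deposited values were taken as log10 ratios of Cy5 over Cy3, from their signed range and median of 0 on every array. The labels give the dye of each wall but not the log base, the dye normalization or whether the sign was already turned. It was taken as not turned: Myl7 averaged -4.54 over the hearts when turned and -0.11 as deposited. In the pool Myl7 stood at -0.12 when turned. The largest absolute mean of any gene as deposited was 2.72. The same reading was applied to all genes of an array. Of the genes beyond 1.5-fold in all hearts, 15 of 18 when turned lay on the same side on all 8 heart arrays. As deposited, 68 of 123 did so. Each group was picked under its own sign, so these counts do not decide between the readings. Of all genes, 220 lay on the same side on all 8 heart arrays when turned and 1161 as deposited. A part that follows the dye keeps its deposited sign in both orientations, so these counts do not decide between the readings either. The side of small ratios stays uncertain, since that part was larger in size than the wall ratio in 67.61% of all genes.

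Values were multiplied by 3.32 to give log2 ratios and signed by the wall label of the Cy5 channel. Exact zeros were kept, at 7.69% to 15.1% of features per array. The platform annotation gave 1 symbol to 18218 of 22393 features, several symbols to 16 and no symbol to 4159. Of the Entrez numbers, 18175 were found in the RefSeq gene table with 0 differing symbols. Probes were averaged per gene, and the 2 arrays of a heart or of the pool were averaged to 1 replicate. The 4 hearts and the pool were fitted with lmFit and eBayes of limma 3.58.1, under R 4.3.3 and with statmod 1.5.0 for blocks, testing the mean of the hearts against 0 and against the pool, two-sided, with Benjamini-Hochberg adjustment over 16504 genes at 0.05. The procedure was tested on simulated data. Lists and motifs are described by counts and medians without a test.

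The members, lists, motifs and the rule for named genes were chosen with earlier results of these data known. Genes given in full were 13 measured genes listed by symbol, the up to 2 genes a subgroup with the highest absolute mean on the same side in all hearts, and the 5 with the highest absolute difference from the pool. Alternatives were other signs, centring, spread, zeros, probes, dye orientations, fits, fold limits and each heart left out.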

Additional observations from a re-analysis of the deposited data

Results flagged for a closer look

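For Col4a1 heart 5, at 0.36, stood far from the other 3 hearts by Dixon's test, and for Lum heart 3 did so, at 0.15. These are 2 of 43 sets of 4 hearts examined (the members and their median), and 2.15 would be found by chance at 1 in 20. Thbs4 had all 4 hearts below 0 and both pool arrays above 0, with a difference of hearts minus pool of -0.89. The limma test of that difference gave an adjusted p of 1.00, and the pool is a single replicate.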

How the results depend on the processing

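Depth is not defined for these ratios, and signal over background was not checked, without channel intensities. Dropping exact zeros changed the sign of 0 of 42 members and a common spread on every array changed 1. Array medians were all 0, so subtracting them changes nothing by construction, and the probe choice applies to the 2 members with several probes. Leaving out a heart changed the sign of 3 to 5 members. The walls of a heart were paired on each array. Hearts and pool could not be paired, because the pool is RNA of other animals and its replicate number was given in accession order. The causes of the changes below were not tested.

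With values taken as already turned, which give the part that follows the dye, the median of all members was -0.0037. There 20 of 42 members changed sign. Those whose shift was over the SD between hearts were Col1a1 0.62, Col3a1 -0.0233, Col5a1 -0.0615, Col5a2 0.49, Col6a1 0.30, Col14a1 -0.12, Col15a1 0.12, Col18a1 -0.26, Eln -0.19, Loxl1 0.17, Bgn 0.18, Lum 0.21, Fmod 0.58, Timp1 0.30, Timp2 1.08, Mmp3 0.0737, Tnc -0.54, Thbs2 0.30 and Tgfb2 0.16, and the other was Col1a2 at 0.0424. The median of the leucine-rich proteoglycans became 0.18, and the fibrillar, TGF-beta and protease medians also changed sign, to 0.0096, 0.0488 and 0.0433. On arrays with lateral RNA in Cy5 alone 12 members changed sign, by more than that SD for Col5a2 at 0.37, Col6a1 at 0.20, Eln at -0.14, Loxl1 at 0.0898, Lum at 0.12, Timp1 at 0.23, Timp2 at 1.07, Tnc at -0.42 and Thbs2 at 0.16, and by less for Col1a1, Col18a1 and Bgn. The medians of the fibrillar collagens and of the leucine-rich proteoglycans became 0.0834 and 0.0833 in that order. On arrays with lateral RNA in Cy3 alone 10 members changed sign, by more than that SD for Adamts1 at 0.0553 and by less for Col4a1, Col4a2, Col6a2, Fn1, Lox, Mfap5, Serpinh1, Tgfb1 and Tgfb3. There the elastic fibre and adhesive median became -0.24, and the fibrillar and basement membrane medians changed sign by less.

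Members on the same side in all hearts numbered 15 with values taken as already turned and 15 with lateral RNA in Cy3 alone, against 9 in the averaged arrays, and 12 to 20 with a heart left out. Those lateral in all hearts were 7 with values already turned and 4 in each dye orientation alone, against 2, and 2 to 4 with a heart left out. Those septal were 11 with lateral RNA in Cy3 alone, against 7, and 8 to 18 with a heart left out. Genes beyond 1.5-fold in all hearts numbered 123 with values already turned, 11 with a common spread, 151 with lateral RNA in Cy5 alone and 134 with lateral RNA in Cy3 alone, against 18, and 31 to 41 with a heart left out. At a lower fold limit, 0.32 on the log2 scale, there were 71, and at a limit of 2-fold there were 4. Members beyond 1.5-fold were 1 with values already turned, and 0 to 2 with a heart left out.

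Fitting arrays singly, with hearts as blocks, called 20 genes with a dye term and 23 without for the walls, and 3 and 3 against the pool, and the unmoderated fit called 1 against the pool.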
